A study of Homo sapiens with 8 samples.

Results

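Expression of the genes of oxidative phosphorylation (OXPHOS) was followed in human acute myeloid leukemia (AML) cells after knockdown (KD) of PRMT9, a protein arginine methyltransferase. Genes were taken by symbol from the count table: the subunit families NDUFA, NDUFB, NDUFC, NDUFS and NDUFV of complex I, SDHA to SDHD of complex II, the UQCR genes and CYC1 of complex III, COX4 to COX8 of complex IV, the ATP5 genes of complex V, and the MT-ND, MT-CO, MT-ATP and MT-CYB genes. Of 265 symbols that matched, 11 assembly factors (NDUFAF), 3 antisense genes, 147 pseudogenes by symbol and 1 by its GENCODE 29 type were removed, which left 103 of the 57992 genes in the tables. The nucleus encodes 90 of these and mitochondrial DNA (mtDNA) encodes 13. MT-ATP6 and MT-ATP8 end like pseudogene symbols and were kept. Complex I holds 37 nuclear and 7 mtDNA-encoded genes, complex II 4 nuclear genes, complex III 10 and 1, complex IV 19 and 3, and complex V 16 and 2. The remaining 4 genes code for no subunit: ATP5S and ATP5SL, which were renamed since, and the readthrough genes ATP5J2-PTCD1 and NDUFC2-KCTD14. Complex IV includes NDUFA4 and its paralog NDUFA4L2, which carry complex I names.

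The libraries come from Molm13 and THP1, established AML lines of monocytic type with an MLL (KMT2A) fusion. Cells carried a control shRNA (shCtrl, labeled WT) or an shRNA against PRMT9 (shPRMT9, labeled PRMT9 knockdown), and all 4 groups received doxycycline (Dox), which switches on the vector's hairpin. Each group held 2 libraries, 8 in all, made from polyadenylated RNA and holding 18720950 to 27356870 counts each. Whether libraries 1 and 2 of a group are separate cultures, or for shPRMT9 separate hairpins, is not stated, so P values measure the spread between these libraries, which may be technical. Dox is known to inhibit the mitochondrial ribosome, and no library without Dox was analysed here. Library names of THP1 also carry the letters OCI, whereas the remaining labels give THP1.

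PRMT9 stood at 16.2 and 14.9 CPM (counts scaled to a common library size within a line) in Molm13 shCtrl against 2.17 and 2.62 CPM in shPRMT9. In THP1, the values were 12.4 and 12.8 CPM against 2.37 and 2.73 CPM. The log2 fold changes were -2.68 and -2.29, so the labels held in every library. All 13 markers fixed for monocytic AML lines had counts in both lines, and their summed level was higher after KD, at 2058 and 2059 against 1433 and 1462 CPM in Molm13 and at 4148 and 4004 against 2746 and 2726 CPM in THP1. Summed erythroid markers were at most 0.273 CPM and summed muscle markers at most 1.03 CPM in any library, with COX6A2 and COX7A1 at 0. Summed B-cell markers lay between 39.4 and 43.3 CPM in Molm13 and went from 4.60 and 5.04 to 14.8 and 12.96 CPM in THP1, and summed T or NK cell markers lay between 164 and 225 CPM. Of 12 tested markers of the monocytic list, 9 rose and 3 fell in Molm13 (log2 fold changes of -0.77 to 2.06), and 9 rose and 2 fell in THP1 (-0.82 to 2.40). The part of these shifts in the results was not tested. In bulk libraries, fewer cells of a type and less RNA per cell cannot be told apart.

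OXPHOS is the last stage of respiration. Complexes I and II take electrons from NADH and succinate and pass them through coenzyme Q to complex III, cytochrome c carries them to complex IV, and the proton gradient built by complexes I, III and IV drives ATP synthesis in complex V. The mtDNA-encoded subunits form the membrane core of complexes I, III, IV and V and are transcribed and translated inside the organelle, whereas all subunits of complex II and all other subunits come from nuclear genes and are imported. AML cells are known to rely on this pathway.

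Of the 103 genes, 94 had enough counts to be tested in each line. In Molm13, 61 of the 94 fell after PRMT9 KD and 11 rose at a false discovery rate (FDR) below 0.05, while among all tested genes 33.5% fell and 33.4% rose. The shift was small for most: the median log2 fold change was -0.21, a level 0.863 times that of shCtrl, against 0.00047 over all 16446 tested genes. In Molm13, 7188 genes moved by more than 0.1 on the log2 scale with a correction for exon length and GC content, against 167 in THP1. Small changes of single Molm13 genes may thus depend on that choice. The median shift of nuclear OXPHOS genes in Molm13 was 0.012 on the log2 scale. The shPRMT9 and shCtrl values did not overlap for 86 of 94 genes, beside 81.8% of all tested genes. When a fold change above 1.5 and an RPKM (CPM per kilobase of exon) above 1 were also required, 8 genes fell and none rose, against 11.3% and 11.4% of all tested genes. DESeq2 likewise called 8 and 0, and with an unadjusted P below 0.05 in place of the FDR the counts were again 8 and 0. In THP1, 28 of 94 fell and 17 rose at FDR below 0.05, beside 18.6% and 19.0% of all tested genes, and the median was -0.05. These shares of all tested genes are the ones to set beside the FDR counts of each complex and list below. In THP1, none passed the rule with fold change and RPKM in either direction by edgeR, by DESeq2 or with an unadjusted P below 0.05, beside 2.39% lower and 3.82% higher among all tested genes. DESeq2 called 16 lower and 11 higher in THP1 by FDR, library size alone as the scale left 11 higher, and 17 were lower without shCtrl library 1 and 11 higher without shPRMT9 library 2.

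**Figure D1:**
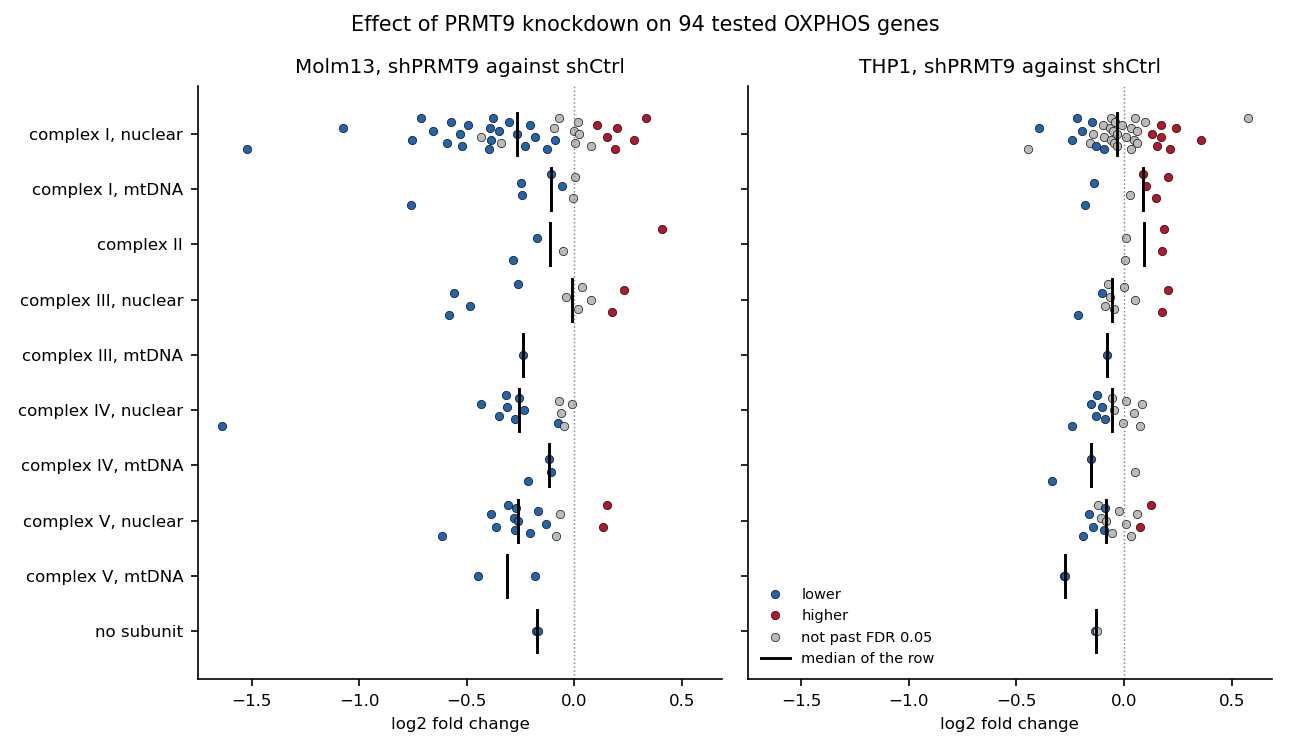
Log2 fold change (x axis) of each of the 94 tested OXPHOS genes after PRMT9 KD in Molm13 (left) and THP1 (right), in rows by complex and genome, with black bars for row medians. Blue genes were lower and red genes higher at FDR below 0.05; nuclear complex I has a median of -0.27 in Molm13 and -0.03 in THP1.

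Complex I, the entry point for NADH, held 7 of the 8 genes that fell in Molm13 by the rule with fold change and RPKM, MT-ND6 among them. Of its 37 nuclear genes, 22 fell, 6 rose and 9 did not pass FDR, and their median was -0.27 (log2 fold change). Among all tested genes, 33.5% fell and 33.4% rose in Molm13. In THP1, 7 fell, 7 rose and 23 did not pass, with a median of -0.03. These THP1 counts were near the shares of all tested genes in that line, 18.6% lower and 19.0% higher. NDUFS6, an accessory subunit that binds zinc, stood at 107 and 103 CPM in Molm13 shCtrl and at 38.3 and 34.1 CPM in shPRMT9. Its level thus fell 2.87-fold (log2 fold change -1.52 ± 0.050 (SE), FDR 2.4e-28). In THP1, NDUFS6 went from 106 and 98.1 CPM to 77.1 and 76.2 CPM (-0.40 ± 0.046, FDR 5.0e-08). The 2 lines started at nearly the same NDUFS6 level, and groups did not overlap in either.

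The core subunits carry the flavin and the iron-sulfur clusters that move electrons from NADH to coenzyme Q. Among 7 nuclear core genes in Molm13, 4 fell, with a median of -0.38. NDUFS8, an iron-sulfur protein, was at 35.8 and 34.2 CPM in shCtrl and at 17.6 and 15.5 CPM in shPRMT9 (-1.07 ± 0.073, FDR 3.7e-17). In THP1, its values were 58.8 and 55.3 CPM against 52.7 and 55.9 CPM, which overlap (-0.06 ± 0.053, FDR 0.42). NDUFS1, the largest subunit of the complex and also an iron-sulfur protein, was at 252 and 249 CPM in Molm13 shCtrl and at 149 and 146 CPM in shPRMT9 (-0.75 ± 0.030, FDR 3.8e-25). THP1 NDUFS1 moved little, from 185 and 186 CPM to 178 and 168 CPM (-0.09 ± 0.036, FDR 0.049). NDUFS7 fell in Molm13 (-0.38 ± 0.052) and rose in THP1 (0.15 ± 0.058, FDR 0.039), NDUFV1 fell slightly in Molm13 (-0.09 ± 0.034), and NDUFS3 rose in THP1 (0.21 ± 0.045) with 0.0016 in Molm13. NDUFV2 was read at no more than 2.01 CPM in any library and did not pass FDR in either line. In GENCODE 29, exons of another gene cover 28.4% of its exon length, and whether this lowers its counts was not tested. For NDUFS7 the shared part is 49.1%, and its share in the changes of NDUFS7 was not tested.

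Accessory subunits surround the core and are needed for its assembly. Of 30 such nuclear genes of complex I, 18 fell and 5 rose in Molm13 against 6 and 5 in THP1. NDUFAB1 is the mitochondrial acyl carrier protein, which also serves fatty acid and lipoic acid synthesis. It was at 84.0 and 88.3 CPM in Molm13 shCtrl and at 52.8 and 51.5 CPM in shPRMT9 (-0.71 ± 0.046, FDR 4.6e-18). THP1 values overlapped, at 64.3 and 70.6 CPM against 70.2 and 69.2 CPM. NDUFA6, a LYR protein that docks NDUFAB1 onto the complex, was at 56.1 and 60.2 CPM in Molm13 shCtrl and at 37.3 and 35.7 CPM in shPRMT9 (-0.66 ± 0.054, FDR 1.5e-14). Its THP1 values were 90.2 and 89.1 CPM against 88.3 and 88.1 CPM (-0.01 ± 0.042, FDR 0.87). NDUFB6, a membrane arm subunit, was the last nuclear complex I gene past the 1.5-fold limit, from 33.2 and 32.2 CPM to 22.5 and 20.6 CPM in Molm13 (-0.59 ± 0.069, FDR 3.9e-10). The 5 that rose in Molm13 were NDUFC1, NDUFB11, NDUFS4, NDUFA10 and NDUFB4, by 0.34 down to 0.10 on the log2 scale. NDUFC1 rose alike in both lines, from 35.4 and 36.3 CPM to 44.9 and 44.6 CPM in Molm13 and from 39.0 and 39.0 CPM to 48.9 and 49.99 CPM in THP1. The log2 fold changes of 0.34 ± 0.056 and 0.36 ± 0.055 differed by 0.03 (FDR 0.83), and that of NDUFA10 was 0.15 and 0.24. NDUFA7 was read at under 2 CPM in each library and did not pass FDR, with 33.5% of its exon length shared with other genes. Exons of RBM10 cover 44.9% of the exon length of NDUFB11, and their part in its rise was not tested.

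**Figure D2:**
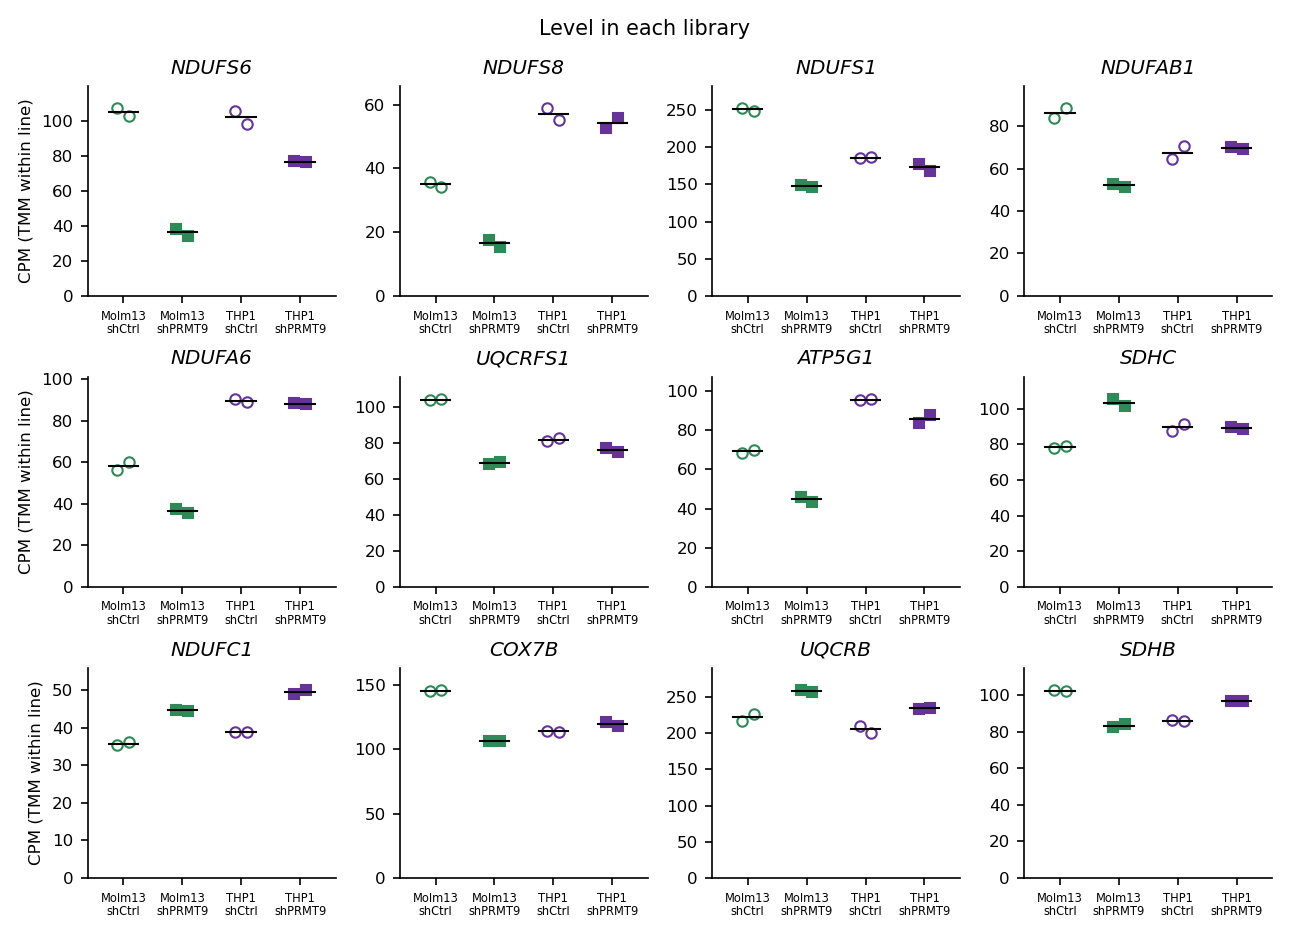
CPM in each library (y axis, scaled by TMM within each line) for 12 nuclear OXPHOS genes, with open circles for shCtrl, filled squares for shPRMT9, green for Molm13, purple for THP1 and bars for means. In Molm13 NDUFS6 drops from 107 and 103 to 38.3 and 34.1 CPM, whereas SDHC, NDUFC1 and UQCRB rise.

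Complex II, or succinate dehydrogenase, is also an enzyme of the citrate cycle and has no mtDNA-encoded subunit. SDHA and SDHB form its catalytic part and SDHC and SDHD its membrane anchor. SDHB was at 103 and 102 CPM in Molm13 shCtrl and at 82.4 and 84.2 CPM in shPRMT9, but at 86.3 and 85.7 CPM in THP1 shCtrl and at 97.1 and 97.0 CPM in shPRMT9. SDHB therefore fell in Molm13 (-0.28 ± 0.040, FDR 2.7e-08) and rose in THP1 (0.19 ± 0.042, FDR 0.00065). SDHD moved likewise (-0.17 ± 0.041 and 0.18 ± 0.063), although its THP1 values of 34.4 and 38.3 CPM against 42.7 and 38.8 CPM almost met. The other anchor gene, SDHC, rose in Molm13 from 78.1 and 78.9 CPM to 105 and 101 CPM (0.41 ± 0.040, FDR 4.2e-12), the largest rise of any tested OXPHOS gene in that line. It stayed between 87.7 and 91.2 CPM in all THP1 libraries. SDHA did not pass FDR in either line (-0.05 ± 0.032 and 0.0030 ± 0.037), with values of 179 to 195 CPM in Molm13 and 165 to 172 CPM in THP1.

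Complex III passes electrons from coenzyme Q to cytochrome c. Of its 10 nuclear genes, 4 fell and 2 rose in Molm13, and 2 fell and 2 rose in THP1. Among all tested genes, 33.5% fell and 33.4% rose in Molm13, and 18.6% fell and 19.0% rose in THP1. The THP1 counts of complex III were thus near the shares of all tested genes. UQCRFS1, the Rieske iron-sulfur protein, was at 104 CPM in both Molm13 shCtrl libraries and at 68.6 and 69.4 CPM in shPRMT9 (-0.58 ± 0.041, FDR 9.9e-17). UQCRQ, a small subunit next to cytochrome b, went from 66.6 and 67.3 CPM to 47.3 and 42.9 CPM (-0.56 ± 0.051). Neither passed FDR in THP1, with log2 fold changes of -0.09 and -0.0018. UQCR11 and UQCR10 fell in Molm13 as well, by 0.48 and 0.26 on the log2 scale. UQCRB rose in both lines, from 217 and 227 CPM to 259 and 258 CPM in Molm13 and from 210 and 201 CPM to 234 and 235 CPM in THP1 (0.23 ± 0.028 and 0.21 ± 0.035). CYC1, cytochrome c1, did not pass FDR in Molm13 (-0.04 ± 0.031) and fell slightly in THP1 (-0.10 ± 0.034, FDR 0.021).

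UQCRH, the hinge protein, has an intronless copy, UQCRHL, and reads of the pair are hard to assign. UQCRHL was at 72.8 and 75.8 CPM in Molm13 shCtrl but at 1.52 and 1.38 CPM in THP1 shCtrl, 51.0-fold lower. UQCRH was at 114 and 118 CPM in Molm13 shCtrl and at 195 and 194 CPM in THP1 shCtrl. Summed, the pair came to 187 and 194 CPM against 196 CPM in both THP1 shCtrl libraries, so the copies differed between the lines in opposite directions and their sum hardly did. After KD, UQCRH did not change past FDR in Molm13 and fell in THP1 (-0.22 ± 0.036, FDR 1.7e-05), where the summed level was 171 and 164 CPM. The lines come in separate tables, and ribosomal protein genes with many copies differed between these tables too: RPS26 was at 12.3 and 11.7 CPM in Molm13 shCtrl and at 151 and 142 CPM in THP1 shCtrl. Line and table handling cannot be told apart for such genes.

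Complex IV reduces oxygen. Of 13 tested nuclear genes, 9 fell and none rose in Molm13 by edgeR (median -0.26), and all 13 had values below 0. In THP1, 6 fell and none rose by edgeR (median -0.06), with 6 lower and 1 higher at an unadjusted P below 0.05. COX7B was at 145 and 146 CPM in Molm13 shCtrl and at 106 CPM in both shPRMT9 libraries (-0.44 ± 0.035, FDR 7.3e-15), whereas in THP1 it did not pass FDR (0.08 ± 0.039, FDR 0.10). COX6C fell alike in Molm13, from 160 and 172 CPM to 138 and 137 CPM, and in THP1, from 145 CPM in both to 122 CPM in both (-0.26 ± 0.034 and -0.24 ± 0.037). COX6A1 (-0.31 and -0.12), COX7A2 (-0.23 and -0.15) and COX8A (-0.35 and -0.10) fell in both lines, and COX7A2L, which links complexes III and IV into supercomplexes, fell by 0.08 and 0.13 on the log2 scale. COX4I1, COX5B, COX6B1 and COX7C did not pass FDR in Molm13, and COX4I1 fell by 0.09 on the log2 scale in THP1 (FDR 0.048).

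Complex IV is also known for tissue-specific isoforms. Isoforms known from muscle, lung and testis were not detectable: COX4I2, COX6A2, COX7A1 and COX7B2 had 0 counts in all 8 libraries, which allows at most 0.1097 to 0.160 CPM in a library (3 counts, counting error only). COX6B2 and COX8C, known from testis, had at most 12 and 4 counts in a library. NDUFA4 fell in Molm13 (-0.32 ± 0.048) and stood at 99.3 to 101 CPM in all THP1 libraries. Its paralog NDUFA4L2, which is induced by hypoxia in many cells, was nearly silent, at 2.15 and 2.74 CPM in Molm13 shCtrl and 0.742 and 0.796 CPM in shPRMT9. That was a fall of 1.64 on the log2 scale (SE 0.291, FDR 3.6e-06), and the gene missed the rule with RPKM because no library of the line reached 1 RPKM (mean of 0.871 RPKM in shCtrl). Its THP1 values lay between 1.42 and 1.56 CPM.

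Complex V makes ATP. In Molm13, 11 of 15 tested nuclear genes fell and 2 rose (median -0.26), and in THP1 5 fell and 2 rose (median -0.08). The catalytic head is built mainly of ATP5A1 and ATP5B. ATP5B, the most abundant nuclear OXPHOS transcript, was at 1573 and 1610 CPM in Molm13 shCtrl and at 1443 and 1435 CPM in shPRMT9, but at 762 and 769 CPM in THP1 shCtrl and at 825 and 832 CPM in shPRMT9. It thus fell by 0.13 ± 0.021 on the log2 scale in Molm13 and rose by 0.13 ± 0.028 in THP1. ATP5A1 did the same (-0.17 ± 0.024 and 0.07 ± 0.029, FDR 0.043 in THP1). Subunit c, which forms the rotor ring, is made from 3 genes that code for the same mature protein. ATP5G1 fell from 68.6 and 69.9 CPM to 46.0 and 43.6 CPM in Molm13 (-0.62 ± 0.049, FDR 6.2e-15), ATP5G3 fell by 0.20, and ATP5G2 rose from 196 and 199 CPM to 217 and 219 CPM (0.15 ± 0.029, FDR 1.2e-05). In THP1, ATP5G1 and ATP5G2 fell (-0.15 and -0.09) and ATP5G3 had -0.06 (FDR 0.23). Per length, shCtrl levels in Molm13 were 26.5 RPKM for ATP5G1, 49.5 for ATP5G2 and 30.0 for ATP5G3, and these paralogs can share reads. ATP5S and ATP5SL, which are no subunits, fell slightly in Molm13 (-0.17 and -0.18).

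The mtDNA-encoded genes were read far above the nuclear ones. They took 5.25% and 5.14% of all counts in Molm13 shCtrl and 4.78% and 4.65% in shPRMT9, means of 5.19% ± 0.077 and 4.72% ± 0.095 (SD, n = 2). In THP1, the share was 7.05% and 6.84% in shCtrl and 6.51% and 6.80% in shPRMT9 (6.95% ± 0.147 and 6.66% ± 0.205), so the THP1 groups almost touched. With 2 libraries against 2, an exact permutation test cannot go below a two-sided P of 0.333. The share taken by nuclear OXPHOS genes was lower too, from 1.02% to 0.923% in Molm13 and from 0.865% to 0.841% in THP1. The mitochondrial ribosomal RNAs, which are not among these genes, took a mean of 1.46% in shCtrl and 1.59% in shPRMT9 in Molm13, and 1.07% and 0.937% in THP1, so that their share was higher after KD in Molm13 and lower in THP1. They lack the long tails that the library kit captures, so these shares depend on that step.

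In Molm13, 11 of 13 mtDNA-encoded genes fell and none rose by edgeR, DESeq2 or an unadjusted P below 0.05 (median -0.18), and in THP1 7 fell and 4 rose (median -0.08). MT-ND6 is the only protein gene on the light strand of mtDNA. It stood at 470 and 459 CPM in Molm13 shCtrl and at 276 and 268 CPM in shPRMT9 (-0.76 ± 0.027, FDR 3.1e-27), but at 265 and 260 CPM in THP1 shCtrl and at 261 and 270 CPM in shPRMT9. After KD, Molm13 thus had about the level THP1 showed in either group. How well the selection of polyadenylated RNA captured MT-ND6 was not tested. The strand setting of the counting is not given in the sources used here, so light strand reads cannot be told from heavy strand reads at this place if strand was ignored.

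The other mtDNA-encoded genes come from shared heavy strand transcripts, yet their changes were unequal. MT-ATP8, MT-ND1, MT-ND2, MT-CYB, MT-CO3 and MT-ATP6 fell by 0.45, 0.25, 0.24, 0.24, 0.22 and 0.18 on the log2 scale in Molm13. MT-CO1 and MT-CO2 fell by 0.11 and 0.12. MT-ND4L and MT-ND5 fell by 0.11 and 0.06, but their values were above 0 (0.08 and 0.01) when gene length and GC content were corrected for, and that of MT-ND4L also with length alone (0.04). MT-ND3 and MT-ND4 had -0.0037 and 0.0030, and MT-ND3 had 0.12 and 0.20 under these corrections. In THP1, MT-CO3 fell the most, from 7300 and 7110 CPM to 5435 and 5878 CPM (-0.34 ± 0.030, FDR 3.7e-10). MT-ATP6 and MT-ATP8, which overlap by a short stretch, fell by 0.27 and 0.28, and MT-ND5, MT-CO1, MT-ND3 and MT-CYB by 0.18, 0.15, 0.14 and 0.08. MT-ND2 rose from 3476 and 3345 CPM to 3779 and 4019 CPM (0.21 ± 0.030, FDR 2.2e-06), and MT-ND4L, MT-ND4 and MT-ND1 rose by 0.15, 0.10 and 0.09, although the MT-ND1 libraries overlapped. The Molm13 median of these genes was -0.11 with the length correction and -0.08 with GC as well. Left out because of their symbols, MT-ATP6 and MT-ATP8 would move the medians to -0.12 in Molm13 and 0.03 in THP1.

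**Figure D3:**
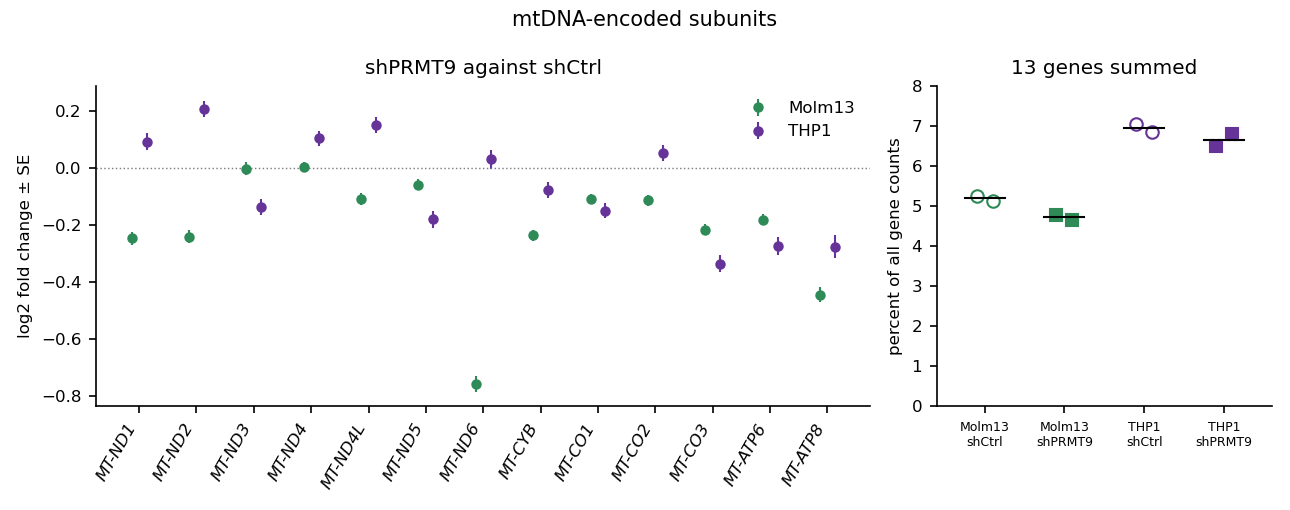
Left, log2 fold change with its SE (y axis) of the 13 mtDNA-encoded genes in Molm13 (green) and THP1 (purple). Right, their summed share of all gene counts in each library in percent (open circles for shCtrl, filled squares for shPRMT9, bars for means), which drops from 5.19% to 4.72% in Molm13.

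Promoters of nuclear OXPHOS genes are known to carry sites for NRF1, for ETS factors such as GABP and for YY1. Windows of 300 bases (250 before and 50 from the start site on) were taken from RefSeq (GRCh38.p14) for 69 of the 90 nuclear genes, using the first window listed for each gene. The letters searched on both strands were GCGCATGC for NRF1, CCGGAAG for ETS and AAGATGG for YY1, which do not contain one another. NRF1 letters were in 13 of the 69 windows (18.8%), beside 3.27% of the windows of all 27305 genes. ETS letters were in 19 (27.5%, beside 10.7%) and YY1 letters in 16 (23.2%, beside 6.06%). At least 1 of the 3 was in 36 of the 69 windows (52.2%), beside 18.2% of the windows of all genes. By direction, it was in 19 of 39 genes that fell in Molm13, in 5 of 8 that rose and in 12 of 17 that did not pass FDR. The letters were thus found in genes of every direction. A match is not a binding site, and genes without these letters may have other sites.

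For each motif, the window of the gene with the largest fall and of the gene with the largest rise in Molm13 is shown, to let genes of opposite direction be read side by side. No riser had the ETS letters. NDUFS6 (chr5:1801157-1801456, plus strand), NDUFS1 (chr2:206159395-206159694, minus strand) and NDUFA6 (chr22:42090723-42091022, minus strand) fell. ATP5G2 (chr12:53676034-53676333, minus strand, ATP5MC2 in RefSeq) and NDUFS4 (chr5:53560389-53560688, plus strand) rose. Sequences read 5′ to 3′ along the gene, with motif letters in capitals.
NDUFS6: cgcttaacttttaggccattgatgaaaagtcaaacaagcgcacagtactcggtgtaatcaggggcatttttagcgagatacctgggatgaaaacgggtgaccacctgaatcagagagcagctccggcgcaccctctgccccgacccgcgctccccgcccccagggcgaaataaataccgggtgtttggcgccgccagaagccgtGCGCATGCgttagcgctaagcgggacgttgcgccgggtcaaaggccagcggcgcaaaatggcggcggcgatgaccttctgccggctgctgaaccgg
NDUFS1: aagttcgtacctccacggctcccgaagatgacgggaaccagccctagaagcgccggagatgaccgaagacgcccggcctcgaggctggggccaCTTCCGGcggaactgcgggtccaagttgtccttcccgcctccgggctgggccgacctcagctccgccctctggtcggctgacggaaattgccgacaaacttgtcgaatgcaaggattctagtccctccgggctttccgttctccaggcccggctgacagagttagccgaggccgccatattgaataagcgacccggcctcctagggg
NDUFA6: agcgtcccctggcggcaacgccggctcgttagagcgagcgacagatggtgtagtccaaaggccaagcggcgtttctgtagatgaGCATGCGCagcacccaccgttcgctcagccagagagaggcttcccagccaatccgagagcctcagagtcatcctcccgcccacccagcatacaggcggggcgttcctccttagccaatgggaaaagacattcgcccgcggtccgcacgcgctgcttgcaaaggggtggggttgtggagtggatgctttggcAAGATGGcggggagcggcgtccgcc
ATP5G2: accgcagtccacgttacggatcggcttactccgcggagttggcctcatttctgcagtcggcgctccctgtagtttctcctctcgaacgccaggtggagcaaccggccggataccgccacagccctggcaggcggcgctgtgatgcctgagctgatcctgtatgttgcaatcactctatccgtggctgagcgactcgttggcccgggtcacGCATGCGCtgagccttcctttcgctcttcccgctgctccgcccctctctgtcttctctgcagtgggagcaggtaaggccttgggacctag
NDUFS4: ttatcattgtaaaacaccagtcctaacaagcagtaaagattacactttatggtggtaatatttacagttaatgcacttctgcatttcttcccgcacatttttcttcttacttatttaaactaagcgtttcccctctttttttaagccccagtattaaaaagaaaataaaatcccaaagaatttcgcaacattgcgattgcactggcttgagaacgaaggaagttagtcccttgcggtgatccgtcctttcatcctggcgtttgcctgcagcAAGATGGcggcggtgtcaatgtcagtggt

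NDUFS6 and ATP5G2 hold NRF1 letters starting 46 and 40 bases before the start site, on opposite strands. NDUFA6 holds NRF1 letters 166 bases before the start and YY1 letters from base 26 of the transcript on, and NDUFS4 holds YY1 letters from base 22 on. NDUFS1 holds ETS letters 157 bases before the start. NDUFS6 and ATP5G2 thus share the same letters at a similar place while their Molm13 log2 fold changes were -1.52 and 0.15.

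The effect of PRMT9 KD differed between the lines for most OXPHOS genes. In a fit of all 8 libraries, the log2 fold change was higher in THP1 than in Molm13 for 54 of 94 genes and lower for 10 (FDR below 0.05 for the difference), beside 22.8% and 19.4% of all 19288 tested genes. The median difference was 0.18, against 0.03 over all tested genes. NDUFA4L2, which had few counts, differed the most (1.73 ± 0.40), followed by NDUFS6 (1.14 ± 0.07), NDUFS8 (1.03 ± 0.09), MT-ND6 (0.80 ± 0.04) and NDUFAB1 (0.78 ± 0.07). Lower in THP1 were SDHC (-0.39 ± 0.06), NDUFB11 (-0.25 ± 0.07), ATP5G2 (-0.23 ± 0.05), NDUFB4 (-0.22 ± 0.06) and UQCRH (-0.22 ± 0.05). Taking each line's own test, 22 genes fell in both lines, 3 rose in both (NDUFC1, NDUFA10 and UQCRB), 9 fell in Molm13 and rose in THP1, and 2 (NDUFB4 and ATP5G2) did the reverse. The 9 were NDUFA12, NDUFS7, MT-ND1, MT-ND2, MT-ND4L, SDHB, SDHD, ATP5A1 and ATP5B. A further 13 passed in neither line. Among the 13476 genes tested in both lines, 10.8% fell in both, 11.5% rose in both, 5.52% fell in Molm13 and rose in THP1, 5.80% did the reverse and 20.5% passed in neither.

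**Figure D4:**
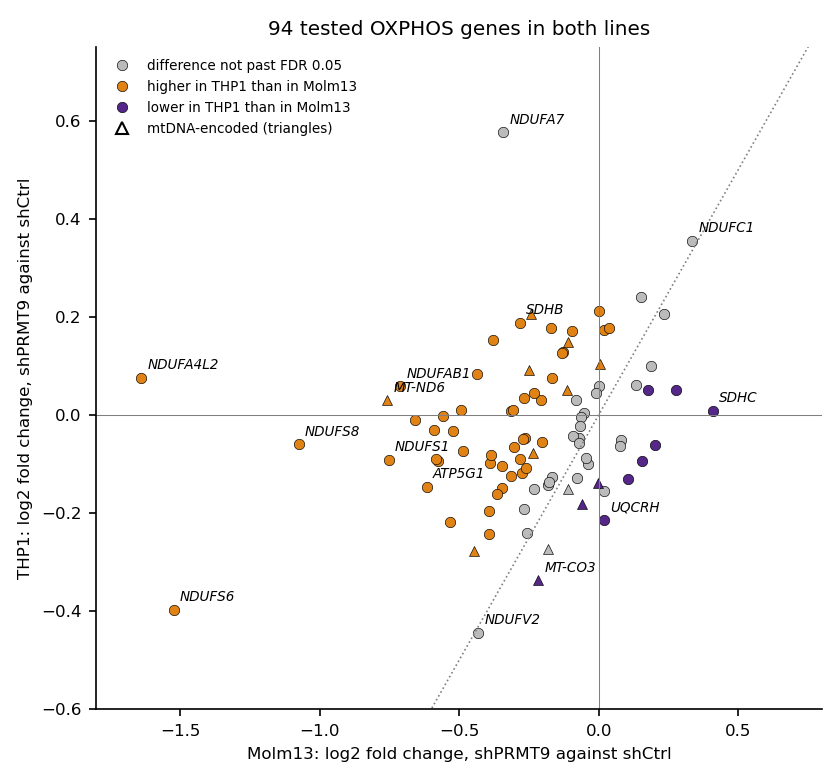
Log2 fold change after PRMT9 KD in Molm13 (x axis) against THP1 (y axis) for 94 OXPHOS genes, with mtDNA-encoded genes as triangles and equal effects on the dotted line. Orange genes (54) had a higher and violet genes (10) a lower effect in THP1 at FDR below 0.05 for the difference.

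Levels in shCtrl were compared next. Per length, the median nuclear complex I gene was at 22.4 RPKM in Molm13 shCtrl and 20.1 RPKM in THP1 shCtrl, complex III at 41.8 and 39.4, complex IV at 63.4 and 55.6, complex V at 44.5 and 40.2, and complex II at 32.2 and 17.3. MT-ND4 was the highest of all in THP1, at 14049 RPKM against 6509 RPKM in Molm13, and MT-CO3 the highest in Molm13, at 7932 against 9191 RPKM in THP1. ATP5B led the nuclear genes at 685 and 330 RPKM. NDUFS5 was the highest nuclear complex I gene in both lines (183 and 196 RPKM), and NDUFA7 was the lowest in Molm13 (0.585 RPKM) and NDUFV2 in THP1 (0.334 RPKM). In complex III, CYC1 led in Molm13 (89.1 RPKM) and UQCRH in THP1 (138 RPKM). In complex IV, COX6B1 led in Molm13 (221 RPKM) and COX8A in THP1 (262 RPKM), while NDUFA4L2 was the lowest tested gene in both (0.871 and 0.523 RPKM). RPKM used the union of annotated exons, so genes with long rare exons read low.

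By FDR and a fold change above 1.5, 18 of 94 genes were lower and 9 higher in THP1 shCtrl than in Molm13 shCtrl, beside 31.1% and 28.4% of all tested genes. SDHD was 2.84-fold lower in THP1 and ATP5B 2.07-fold lower, while MT-ND4 was 2.16-fold higher. NDUFA9 (log2 difference -1.16), ATP5S (-1.31) and ATP5L (-1.08) were also lower, and MT-ND4L and UQCRH (0.75 each), NDUFS8 (0.71) and NDUFA6 (0.63) higher. The counts became 12 lower and 45 higher when gene length was corrected for, so a general statement on the lines' levels depends on that choice.

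**Figure D5:**
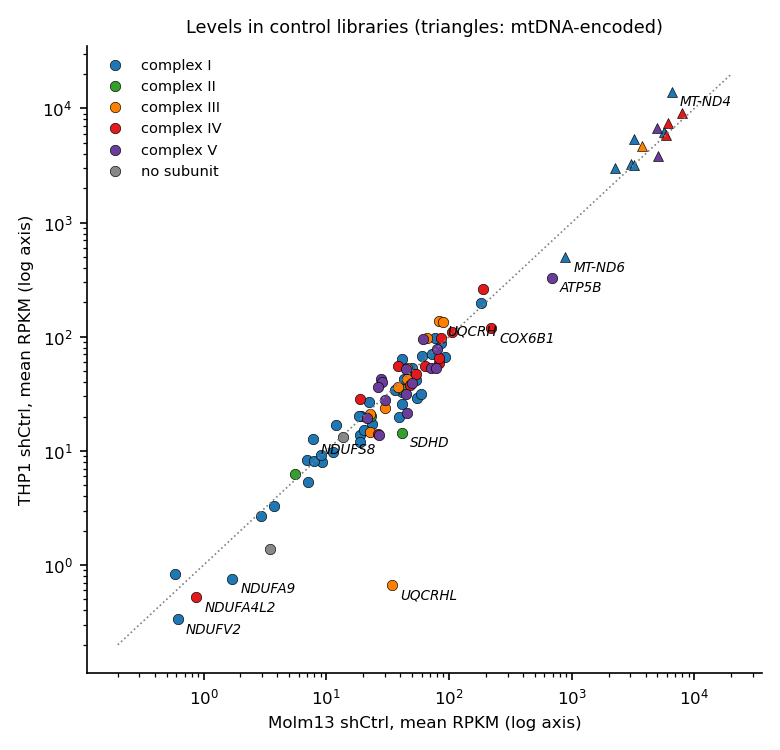
Mean level in shCtrl, in RPKM on log axes, of 94 OXPHOS genes in Molm13 (x axis) against THP1 (y axis), colored by complex, with mtDNA-encoded genes as triangles and equal levels on the dotted line. UQCRHL lies farthest from the line, at 34.1 RPKM in Molm13 and 0.665 RPKM in THP1.

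Genes that serve OXPHOS without being subunits were counted in the same fits. Among all tested genes, 33.5% were lower and 33.4% higher in Molm13, and 18.6% lower and 19.0% higher in THP1. Of 50 assembly factors, 31 fell and 4 rose in Molm13 (median -0.28), and 7 fell and 7 rose in THP1 (median 0.0002). COX16, a complex IV assembly factor, fell in both lines (-1.14 ± 0.270 and -0.87 ± 0.197), at 2.30 and 2.38 CPM in Molm13 shCtrl. CMC2 (-0.97) and C17orf89, now NDUFAF8 (-0.94), fell in Molm13. Of 18 genes for electron carriers, 12 fell and 4 rose in Molm13 (median -0.41), and 3 fell and 2 rose in THP1. CYCS, cytochrome c, went from 219 and 216 CPM to 96.8 and 98.0 CPM in Molm13 (-1.14 ± 0.033, FDR 1.9e-30) and from 315 and 321 CPM to 306 and 286 CPM in THP1 (-0.09 ± 0.034, FDR 0.037).

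Citrate cycle genes fell in Molm13 in 10 of 16 cases and rose in 1 (median -0.25), with IDH3A at -0.88 and FH at -0.73, and in THP1 1 fell and 3 rose. Of 13 mitochondrial chaperones and proteases, 9 fell and 4 rose in Molm13 and 1 fell and 4 rose in THP1. HSPE1, the mitochondrial co-chaperonin, fell in Molm13 from 67.2 and 69.2 CPM to 35.1 and 36.99 CPM. Among mitochondrial ribosomal proteins, 50 of 77 fell and 9 rose in Molm13 (median -0.24), and 16 of 78 fell and 9 rose in THP1 (median 0.0036). MRPL20 fell in Molm13 (-0.95), and in THP1 MRPL43 fell and MRPL50 rose (-0.80 and 0.67). Cytosolic ribosomal protein genes moved in opposite directions in the lines: 68 of 83 rose and 9 fell in Molm13 (median 0.29), and 69 fell and 1 rose in THP1 (median -0.20). Among all tested genes, 33.4% rose and 33.5% fell in Molm13, and 18.6% fell and 19.0% rose in THP1. Line and table handling cannot be told apart for ribosomal protein genes with many copies.

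The machinery of mtDNA expression fell too in Molm13, with 18 of 26 genes lower and 5 higher (median -0.28), against 2 lower and 5 higher in THP1. FASTKD5, which is needed to mature some mtDNA transcripts, fell in both lines (-1.21 ± 0.061 and -0.59 ± 0.087), and the mtDNA helicase C10orf2 (TWNK) fell in Molm13 (-0.85 ± 0.045). PNPT1, a mitochondrial ribonuclease that is also known as an interferon-induced gene, fell in Molm13 from 120 and 117 CPM to 58.8 and 61.9 CPM and rose in THP1 from 102 and 107 CPM to 164 and 166 CPM. All 9 tested regulators of mitochondrial gene expression fell in Molm13, by 0.12 to 0.89 on the log2 scale, and 4 fell and 3 rose in THP1. The coactivators PPARGC1B and PPRC1 fell in Molm13 (-0.89 ± 0.057 and -0.84 ± 0.040) and rose in THP1 (0.19 ± 0.052 and 0.16 ± 0.040), and NRF1 fell in Molm13 (-0.62 ± 0.074) with -0.07 (FDR 0.51) in THP1. Of 11 tested genes that couple hypoxia to respiration, 6 rose and 4 fell in Molm13. PDK1, which shuts off pyruvate dehydrogenase, rose (0.68), as did the mitophagy receptors BNIP3 (0.66) and BNIP3L (0.99) and the MYC antagonist MXI1 (1.31), whereas NDUFA4L2 fell. In THP1, 9 of the list were tested, of which 4 fell, 2 rose by up to 0.36 and 3 did not pass FDR, and the 4 that fell were PDK1, BNIP3, BNIP3L and MXI1 (-0.37, -0.78, -0.34 and -0.68).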

How the data were processed

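PolyA RNA-seq of 8 libraries was analysed, 2 per group. For either line, the authors deposited a table of raw gene counts (whole numbers, not normalized). Per the labels' processing notes they used TopHat2 2.0.8, HTSeq 0.11.2, edgeR 3.30.3 and hg38; annotation and strand setting are not given in the sources used here. File symbols are older ones, used as given.

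Each line was fitted alone in R 4.3.3 with edgeR 4.0.16 (filterByExpr, TMM, quasi-likelihood test, Benjamini-Hochberg over all genes tested), shPRMT9 against shCtrl without a block. A fit of all 8 libraries over 19288 genes tested the difference between lines and the shCtrl levels. The SE of a log2 fold change was derived from its F statistic. Lists were described by counts and medians, with no set test. The tests were first tried on simulated counts. Members and lists were chosen with earlier results of these data known.

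Genes are named as follows: each mtDNA-encoded gene, the 6 largest changes per line and direction without overlap between groups and with at least 20 counts on average, complex II and the isoform families, the 5 largest line differences per direction in effect and in level, the highest and lowest gene per complex, the 4 largest changes per further list, PRMT9, and genes that are no subunit. Results of 1 gene are not reported here. Genes named beyond this rule were chosen after their values were seen. Alternatives were other scales, filters and limits, DESeq2 1.42.0, a replicate block, a common fit, corrections for exon length and for GC content (from GENCODE 29 transcripts) and each library left out. Replicate numbers did not pair the libraries (correlation of their deviations -0.081 in Molm13 and -0.0096 in THP1).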

Additional observations from a re-analysis of the deposited data

Results flagged for a closer look

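The effect of PRMT9 KD was compared between the lines by the test of the difference itself in the fit of all 8 libraries (edgeR). Values are the log2 fold change in THP1 minus that in Molm13. The list below covers only mtDNA-encoded genes, complex II, the isoform families and the genes with the largest line differences in effect. On this list, 28 genes differed at FDR below 0.05. Other genes described by name also differed at this limit and are not listed. Among these, NDUFS1 (0.6736), NDUFA6 (0.6592) and PNPT1 (1.6483) were above 0, and BNIP3 (-1.4254) and MXI1 (-1.9753) were below 0. The difference was above 0 for 20 of the 28 listed genes. Among complex I genes these were NDUFS6 (1.1385), NDUFS8 (1.0283), MT-ND6 (0.8015), NDUFAB1 (0.7815), MT-ND2 (0.4609), MT-ND1 (0.3525), MT-ND4L (0.2716) and MT-ND4 (0.1134). In complexes II and III they were SDHB (0.4849), SDHD (0.3611) and MT-CYB (0.1729). In complex IV they were NDUFA4L2 (1.7280), COX7B (0.5317), NDUFA4 (0.3362), COX8A (0.2571), COX6A1 (0.2019) and MT-CO2 (0.1798), and in complex V ATP5G1 (0.4831), MT-ATP8 (0.1819) and ATP5G3 (0.1617).

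The difference was below 0 for 8 of the 28 listed genes: SDHC (-0.3866), NDUFB11 (-0.2481), ATP5G2 (-0.2349), NDUFB4 (-0.2211), UQCRH (-0.2196), MT-ND3 (-0.1215), MT-ND5 (-0.1083) and MT-CO3 (-0.1065). UQCRH has a near-identical copy, UQCRHL, and line and table handling cannot be told apart for this pair. Groups of 2 libraries are too small for a search for single outlying libraries.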

How the results depend on the processing

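Of 238 recomputed main results, 218 were labeled as kept and 20 as moved. For medians, kept means that the shift was smaller than the spread between libraries of a group, so a moved median can keep its direction. For counts of genes, kept means that the value stayed within a wide tolerance. Kept counts are thus not all unchanged. They include the genes lower in THP1 shCtrl with the length correction and those lower in THP1 with the replicate block, and both counts fell. No cause was tested except where the setting itself sets the value. In Molm13, genes lower by the rule with fold change and RPKM numbered 2 at a fold change above 2 and 36 above 1.2, where 3 were higher; in THP1, 4 were lower and 1 higher above 1.2. The median of nuclear genes in Molm13 was -0.1933 with the length correction and -0.2429 to -0.1981 without single libraries. That of mtDNA-encoded genes was -0.1969 with no filter, -0.1057 with the length correction, -0.0841 with length and GC, -0.1939 to -0.1498 without single libraries and -0.1151 without MT-ATP6 and MT-ATP8, a choice made after seeing the data that gave 0.0294 in THP1. In THP1, library size alone gave 11 genes higher and a nuclear median of -0.0741, DESeq2 gave 16 lower and 11 higher, and leaving out single libraries gave 17 to 23 lower and 11 to 15 higher. In shCtrl, 45 genes were higher in THP1 with the length correction.

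Replicate numbers did not pair the libraries. With the replicate block, 60 genes were lower and 11 higher in Molm13. In THP1, 22 were lower and 15 higher, against 28 and 17 in the main fit. The effect was higher in THP1 for 53 and lower for 9.

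Of 1781 recomputed values of single genes, 1652 kept direction and call, 73 lost and 14 gained the call, and 42 changed sign, of which 3 belong to genes called in the main analysis: MT-ND4L (0.0416 with length, 0.0810 with length and GC) and MT-ND5 (0.0106 with length and GC) in Molm13. The others belong to genes that were not called. In Molm13, COX6B1 had 0.0664 with length; MT-ND3 had 0.0005 with library size alone, 0.0013 with mtDNA-encoded genes left out of the scaling, 0.1201 with length and 0.1996 with length and GC; and MT-ND4 had -0.0114 with no filter and -0.0046 in the common fit. In THP1, library size alone and no filter gave -0.0193 and -0.0049 for NDUFA4, -0.0176 and -0.0032 for NDUFA9, -0.0238 and -0.0094 for SDHA and -0.0187 and -0.0042 for SDHC. SDHA also had -0.0015 without mtDNA-encoded genes in the scaling, and NDUFS8 0.0015 with length and GC. Without single libraries, values in Molm13 ranged from -0.0547 to 0.0330 for COX6B1, -0.0430 to 0.0321 for MT-ND3, -0.0005 to 0.0203 for MT-ND4, -0.0852 to 0.0058 for SDHA and -0.0040 to 0.0472 for UQCRH. In THP1 they ranged from -0.0916 to 0.0479 for ATP5O, -0.0097 to 0.0243 for NDUFA4, -0.0294 to 0.0017 for NDUFA6, -0.1871 to 0.1802 for NDUFA9, -0.0022 to 0.1180 for NDUFAB1, -0.1249 to 0.0004 for NDUFB11, -0.0356 to 0.0363 for SDHA, -0.0147 to 0.0272 for SDHC and -0.1438 to 0.0100 for UQCRHL. A group left with 1 library was assumed to vary like the others. With 2 libraries a group, small changes near the threshold are the least certain.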
